A study of Homo sapiens with 15 samples.

Results

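The genes described here encode parts of the phagocyte NADPH oxidase, namely CYBB, CYBA, NCF1, NCF4, RAC1 and RAC2, together with NCF1B and NCF1C, the pseudogene copies of NCF1. They were chosen by symbol, with 1 row per gene identifier, and are 8 of the 57820 gene identifiers in the files. All 8 were above 0 in at least 1 library of each cell line, so none was lost to a filter on low values. The libraries came from 3 human AML cell lines, MOLM-13 and U937, which have monocytic features, and HL-60, which is promyelocytic. Each line had been transduced with either the empty lentiviral vector pLKO or the same type of vector carrying a short hairpin RNA against RNF5 (shRNF5), an E3 ubiquitin ligase anchored in the ER membrane, and no library was of untransduced cells. There were 3 libraries of each construct in HL-60, 2 of each in U937, and 3 with pLKO and 2 with shRNF5 in MOLM-13. The hairpin that was sequenced is not named in the sources used here, and the cells were harvested 7 days after knockdown by the sample labels and 5 days by the series design. The comparison asks which transcripts change when RNF5 is depleted in AML cells.

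The oxidase transfers electrons from NADPH across the membrane to oxygen and so makes superoxide, which neutrophils and monocytes use against microbes. CYBB (gp91phox, the catalytic subunit) and CYBA (p22phox) form the membrane heterodimer, while NCF1 (p47phox, the organizer) and NCF4 (p40phox) wait in the cytosol and move to the membrane together with a Rac GTPase when the cell is stimulated. Loss of a subunit causes chronic granulomatous disease, and NCF1 is a special case because recombination with its pseudogenes can copy their frameshift into it. The subunits accumulate as myeloid cells mature.

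NCF1 and its copies lie on the long arm of chromosome 7. By the annotation on GRCh37, NCF1 spans chr7:74188358-74203659 on the forward strand, NCF1B spans chr7:72634681-72649821 on the forward strand, and NCF1C spans chr7:74572445-74587848 on the reverse strand. NCF1 is annotated as protein coding and both copies as unprocessed pseudogenes, that of NCF1B as transcribed. The stretch that tells them apart in function is the start of exon 2, shown here as 36 bases of the GRCh37 reference on the strand of each gene, from the end of the intron before it. The capitals mark the GT repeat, which is 4 bases long in NCF1 and 2 in each copy, a shift of the reading frame. The cell lines' own alleles were not read.
NCF1, chr7:74191601-74191636: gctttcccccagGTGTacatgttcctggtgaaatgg
NCF1B, chr7:72637899-72637934: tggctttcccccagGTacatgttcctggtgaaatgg
NCF1C, chr7:74584495-74584530, reverse strand: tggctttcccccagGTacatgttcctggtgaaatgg

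Reads of 75 bases, the length sequenced, can be assigned to a copy only where the copies differ. Of the 75-base windows within single exons, 162 of 553 (29.3%) in NCF1, 170 of 445 (38.2%) in NCF1B and 173 of 622 (27.8%) in NCF1C were found in that copy and in neither of the others. No window of the last exon was found in only 1 copy, in 203 windows of NCF1, 52 of NCF1B and 203 of NCF1C. A kit for the 3′ ends of transcripts is given in the sample labels and a directional poly(A) kit in the study's methods, and how reads that match several places were counted is not given in the sources used here. The NCF1, NCF1B and NCF1C rows are therefore uncertain as separate measurements, and their sum is given beside them.

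The copies share their promoter as well. In RefSeq on GRCh38.p14, the 250 bases before the start of NCF1 read as follows, where the capitals mark a match to GAGGAA, a core motif of the ETS factor PU.1 (SPI1), on the opposite strand. The same stretch of CYBB is shown because its match lies at a similar distance.
NCF1, chr7:74773761-74774010: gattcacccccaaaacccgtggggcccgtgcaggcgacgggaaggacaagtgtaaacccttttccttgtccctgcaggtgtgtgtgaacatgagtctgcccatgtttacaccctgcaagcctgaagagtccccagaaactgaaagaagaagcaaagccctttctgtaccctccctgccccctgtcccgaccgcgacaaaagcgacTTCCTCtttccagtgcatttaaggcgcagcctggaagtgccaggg
CYBB, chrX:37779809-37780058: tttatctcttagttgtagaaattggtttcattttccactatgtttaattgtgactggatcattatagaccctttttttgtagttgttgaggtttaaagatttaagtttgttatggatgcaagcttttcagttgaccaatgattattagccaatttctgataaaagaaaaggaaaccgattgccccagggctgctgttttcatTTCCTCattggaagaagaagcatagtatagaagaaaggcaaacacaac

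The match begins 45 bases before the start of NCF1 and 48 bases before that of CYBB. In the 300-base windows that run from 250 bases before to 50 bases after a start, GAGGAA occurred on either strand in 9781 of 35116 promoters (27.9%), and not in that of CYBA. A match describes the letters only. All 226 windows of 75 bases in the 300-base NCF1 promoter were also found in the genomic sequence of NCF1B and of NCF1C on GRCh37.

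The deposited values are read counts that the authors normalized within each line and rounded to whole numbers. A library's values sum to between 24846125 and 25835131 in MOLM-13 and between 15988450 and 17490271 in the other lines, and the sum is not a depth. From the spacing of the rounded values, 9700000 to 24400000 counted reads were estimated for 11 libraries, and for the other 4 only a lower bound could be set, of at least 15800000. RNF5 itself was lower in every shRNF5 library, with normalized read counts of 1017 to 1223 with pLKO and 76 to 81 with shRNF5 in MOLM-13, 648 to 843 and 46 to 74 in U937, and 506 to 689 and 37 to 133 in HL-60. Fold changes were tested with limma in each line on log2(value + 1), a scale on which changes of low values come out too small. Genes were called where the absolute log2 fold change exceeded 0.4 and the p-value, adjusted by Benjamini-Hochberg over all genes tested, was under 0.1. Nothing in the labels says that replicates were separate cultures, so the p-values measure the spread between these libraries, which may be technical.

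Markers of the lines were checked first. Of 10 myeloid markers, 9 were above 0 in MOLM-13 (CD68 at 0), 8 in U937 (CD14 and CD68 at 0) and 7 in HL-60 (CSF1R, CD14 and CD68 at 0). All 5 T cell and all 4 erythroid markers were at 0 in every library. The B cell marker CD79A averaged 48 with pLKO and 28 with shRNF5 in U937, lay between 22 and 34 with pLKO and between 38 and 44 with shRNF5 in HL-60, and was at 0 in MOLM-13. Of the epithelial markers, KRT8 and KRT18 summed to between 451 and 750 with pLKO and between 769 and 853 with shRNF5 in MOLM-13, KRT8 rose in HL-60 from 6 to 8 up to 18 to 25, and EPCAM and CDH1 were at 0 throughout. The summed myeloid markers overlapped between constructs in MOLM-13 (37348 to 60901 and 38613 to 64459), were lower with shRNF5 in U937 (22180 to 23920 and 17963 to 21023) and higher in HL-60 (113862 to 138298 and 149851 to 217786). In HL-60, MPO makes up most of that sum. The part of these markers in the results below was not tested. In bulk libraries, fewer cells that express a gene and less RNA per cell cannot be told apart.

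With shRNF5, NCF1 and both copies rose in U937 and HL-60 and had the same sign of fold change, without passing the test, in MOLM-13. RAC2 rose in U937. In HL-60, CYBA, RAC1 and NCF4 rose and CYBB fell. In MOLM-13 none of the 8 genes was called, where 1.03% of the 13026 genes tested were called up and 1.01% down. In U937, 4 of the 8 were called up and 0 down, against 6.92% up and 8.74% down among 13165 genes. In HL-60, 6 of the 8 were called up and 1 down, against 13.6% up and 12.3% down among 12570 genes. The U937 and HL-60 counts each include the NCF1, NCF1B and NCF1C rows, which can hold the same reads and are not separate evidence. The genes were also chosen with earlier results of these data known, and the study had named NCF1 as upregulated in all lines, MOLM-13 included. The counts are therefore no fair test of the set against all genes. The study used edgeR, with a p-value under 0.05 for its pathway analysis. It also reported RT-qPCR of NCF1 and, in MOLM-13, chromatin immunoprecipitation at its promoter. By limma here, NCF1 in MOLM-13 had a p-value of 0.0176 before adjustment and 0.211 after it, so the call differs from the study's.

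**Figure D1:**
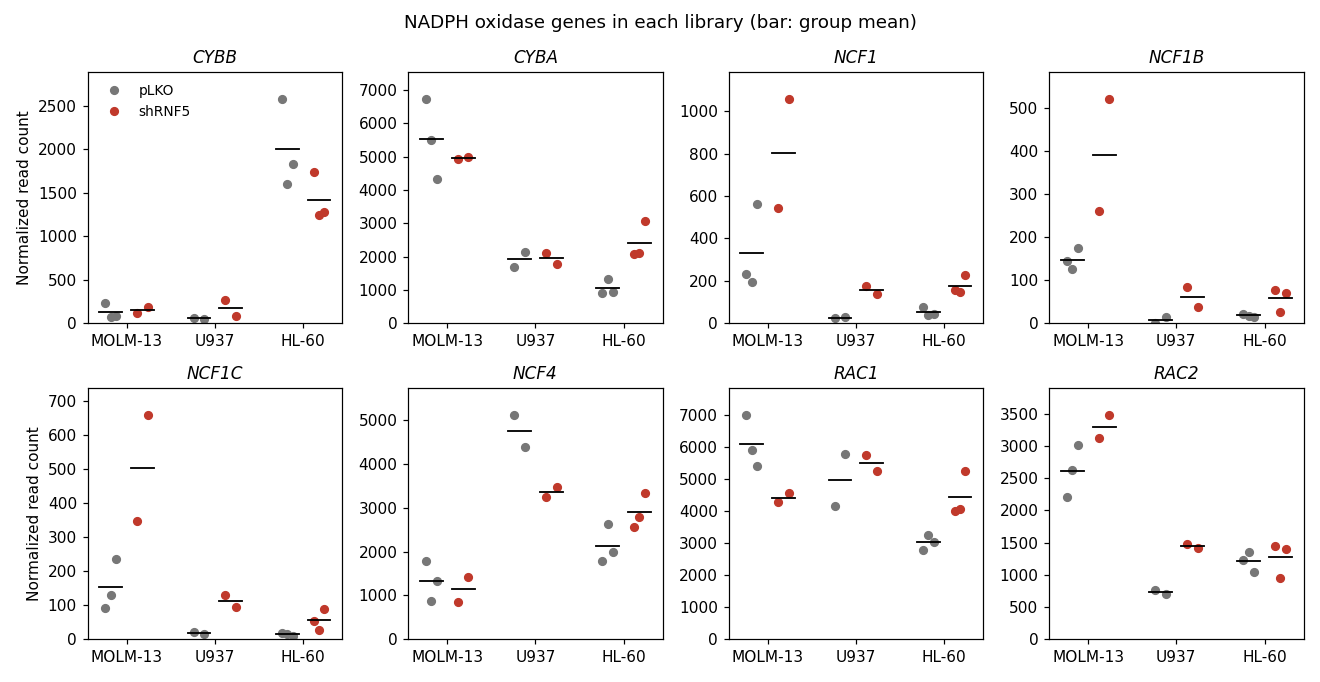
Normalized read count (y axis, from 0, on a scale of its own for each gene) of the 8 genes in each of the 15 libraries, by line (x axis) and construct (grey pLKO, red shRNF5). Each point is 1 library and the black bars are group means. NCF1 with shRNF5 lies at 545 and 1060 in MOLM-13, and its shRNF5 libraries lie above the pLKO libraries in U937 and HL-60.

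CYBB, the catalytic subunit, had its widest range between the lines. Its normalized read counts in the pLKO libraries were 2583, 1606 and 1832 in HL-60, 236, 69 and 79 in MOLM-13, and 61 and 52 in U937. HL-60 thus stood above both other lines, at the 84.2 percentile of the genes tested in its line against 20.7 in MOLM-13 and 15.6 in U937, ranked on values that are not divided by transcript length. Because the authors normalized each line by itself, this order of levels is a description and was not tested.

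In the shRNF5 libraries of HL-60, CYBB was at 1736, 1248 and 1274 normalized read counts. The pLKO and shRNF5 ranges overlap, since the highest shRNF5 library exceeds the lowest pLKO library. The log2 fold change was -0.49 ± 0.19 (SE), with a limma adjusted p-value of 0.0927, so the fall passed the threshold narrowly. It did not pass without pLKO replicate 1, which held the highest value (log2 fold change -0.29, adjusted p = 0.315), nor without pLKO replicate 3 (-0.54, 0.163), shRNF5 replicate 2 (-0.40, 0.217) or shRNF5 replicate 3 (-0.42, 0.244), by limma. In U937, CYBB was at 268 and 77 with shRNF5, both above the pLKO libraries but far from each other, and the log2 fold change of 1.34 ± 0.57 (SE) was not called (limma adjusted p = 0.159). In MOLM-13 it was at 116 and 183, within the pLKO range, with a log2 fold change of 0.42 ± 0.51 (SE) and a limma adjusted p of 0.707.

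CYBA, the partner that CYBB needs for its stability, responded in HL-60. There it was between 919 and 1331 normalized read counts in the 3 pLKO libraries and at 2087, 2096 and 3074 with shRNF5, with no overlap between the groups. The mean rose from 1062 ± 233 to 2419 ± 567 (SD, n = 3 each). By limma the log2 fold change was 1.18 ± 0.19 (SE), which is 2.27-fold, with an adjusted p-value of 0.00345. Leaving out any 1 library of HL-60 gave log2 fold changes of 1.00 to 1.36, each called.

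In the other lines the CYBA groups overlapped. MOLM-13 had 6742, 5494 and 4332 normalized read counts with pLKO and 4946 and 4999 with shRNF5. U937 had 1680 and 2150 with pLKO and 2122 and 1769 with shRNF5. The log2 fold changes were -0.13 (95% interval -0.56 to 0.31) and 0.03 (-0.52 to 0.58), so a rise as large as that in HL-60 lies outside both intervals.

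The heterodimer's partners were called in opposite directions in HL-60. The log2 ratio of CYBB to CYBA within a library was 1.49, 0.27 and 0.97 with pLKO and -0.27, -0.75 and -1.27 with shRNF5 in HL-60, positive in every pLKO library and negative in every shRNF5 library. It was negative in all libraries of MOLM-13, from -6.29 to -4.83 with pLKO and -5.40 to -4.76 with shRNF5, and of U937, from -5.34 to -4.76 and from -4.50 to -2.98. Averaged over the lines, the ratio differed by 0.06 between constructs, with a two-sided exact permutation p of 0.907 within lines (adjusted over 3 ratios, 0.908), because the difference was -1.67 in HL-60, 0.55 in MOLM-13 and 1.31 in U937. Ratios across genes here are of values that are not divided by length, so only their change between constructs is compared.

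NCF1, the organizer subunit, was at 24 and 27 normalized read counts in the U937 pLKO libraries and at 176 and 137 in the shRNF5 libraries, with no overlap. Its mean rose from 25.5 ± 2.1 to 156.5 ± 27.6 (SD, n = 2 each). By limma the log2 fold change was 2.56 ± 0.46 (SE), which is 5.91-fold, with an adjusted p-value of 0.0187. The call was lost without pLKO replicate 2 (2.48, adjusted p = 0.256), shRNF5 replicate 1 (2.38, 0.536) or shRNF5 replicate 3 (2.74, 0.137). In HL-60 the values were 76, 40 and 41 with pLKO and 156, 147 and 228 with shRNF5, again without overlap. The mean rose from 52.3 ± 20.5 to 177 ± 44.4 (SD, n = 3 each). By limma the log2 fold change was 1.78 ± 0.29 (SE), which is 3.42-fold, with an adjusted p-value of 0.00366. Leaving out any 1 library of HL-60 gave 1.58 to 2.07, each called.

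MOLM-13 held the highest NCF1 values of the 3 lines and the widest spread. The pLKO libraries were at 232, 196 and 564 and the shRNF5 libraries at 545 and 1060, so pLKO replicate 3 lies above the lower shRNF5 library. The log2 fold change of 1.36 (95% interval 0.31 to 2.42) was not called (limma adjusted p = 0.211). Without pLKO replicate 3 it was 1.83, with an adjusted p of 0.112. When each MOLM-13 library was left out in turn, it ran from 0.88, without shRNF5 replicate 2, to 1.84, without shRNF5 replicate 1. No difference in the size of this response between lines passed the test. By limma the difference was -1.20 (95% interval -2.51 to 0.11) for MOLM-13 minus U937, -0.41 (-1.60 to 0.77) for MOLM-13 minus HL-60 and 0.79 (-0.46 to 2.04) for U937 minus HL-60, intervals that also hold large differences.

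NCF1B, the transcribed pseudogene, rose in U937 and HL-60 from very low values. In U937 it was at 0 and 14 normalized read counts with pLKO and at 85 and 37 with shRNF5. The log2 fold change of 3.88 ± 1.14 (SE, limma adjusted p = 0.0655) rests on the library at 0, since without it, pLKO replicate 2, the log2 fold change was 1.93 and the adjusted p 0.264. The call was also lost without shRNF5 replicate 1 (3.29, adjusted p = 0.643) or shRNF5 replicate 3 (4.47, 0.243), and without pLKO replicate 3, the log2 fold change was 5.84. It also moves with the constant added before the log, to 4.39 with 0.5 and 2.11 with 10. In HL-60 NCF1B was at 22, 17 and 15 with pLKO and 77, 25 and 70 with shRNF5, just without overlap, with a log2 fold change of 1.48 ± 0.42 (SE) and a limma adjusted p-value of 0.0321. That call was lost without pLKO replicate 3 (1.37, adjusted p = 0.111) or shRNF5 replicate 3 (1.26, 0.125). In MOLM-13 it was at 144, 125 and 174 with pLKO and 260 and 521 with shRNF5, not overlapping and not called (log2 fold change 1.33 ± 0.32 (SE), limma adjusted p = 0.116).

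NCF1C, the pseudogene on the opposite strand, also rose in U937 and HL-60. In U937 it was at 22 and 15 normalized read counts with pLKO and 130 and 94 with shRNF5, with a log2 fold change of 2.54 ± 0.52 (SE) and a limma adjusted p-value of 0.0267, a call lost without the same 3 libraries as for NCF1 (adjusted p = 0.256, 0.585 and 0.159). In HL-60 it was at 20, 15 and 11 with pLKO and 55, 27 and 88 with shRNF5 (1.70 ± 0.43 (SE), limma adjusted p = 0.0204), and leaving out any 1 library gave 1.31 to 2.15, each called. In MOLM-13 it was at 93, 130 and 236 with pLKO and 349 and 659 with shRNF5 (1.75 ± 0.42 (SE), limma adjusted p = 0.115). The shRNF5 libraries lay above the pLKO libraries in all 3 lines. Among the genes tested in the line, NCF1B with pLKO ranked at the 0.2 percentile in U937 and 3.3 in HL-60. NCF1C with pLKO ranked at 3.4 and 2. Whether such low rows passed the authors' filter only through their shRNF5 libraries cannot be told from the values. If they did, a rise was favoured in advance.

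A sum over the 3 copies does not depend on how reads counted once were divided between them. It would still miss reads dropped for matching several places, and would repeat reads counted at each place. Summed over the 3 copies, the values were 469, 451 and 974 with pLKO and 1154 and 2240 with shRNF5 in MOLM-13. They were 46 and 56 with pLKO and 391 and 268 with shRNF5 in U937, and 118, 72 and 67 with pLKO and 288, 199 and 386 with shRNF5 in HL-60. The groups did not overlap in any line, a description that does not stand in for the test. By limma the sum rose 6.27-fold in U937 (log2 fold change 2.65 ± 0.39 (SE), adjusted p = 0.0139) and 3.36-fold in HL-60 (1.75 ± 0.28 (SE), adjusted p = 0.00357), and was not called in MOLM-13 (1.44 ± 0.38 (SE), adjusted p = 0.137). With 2 libraries a group in U937, the call held without pLKO replicate 3 and was lost without pLKO replicate 2 (2.51, adjusted p = 0.257), shRNF5 replicate 1 (2.38, 0.517) or shRNF5 replicate 3 (2.92, 0.112), the size of the fold change moving little.

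The proportions of the copies were compared within each library. NCF1 made up 43.5% to 57.9% of the sum in the pLKO libraries and 47.2% to 47.3% in the shRNF5 libraries of MOLM-13, 48.2% to 52.2% and 45.0% to 51.1% in U937, and 55.6% to 64.4% and 54.2% to 73.9% in HL-60. Averaged over the lines, the share of NCF1 differed by -1.05 percentage points between constructs, that of NCF1B by 0.11 and that of NCF1C by 0.94. The two-sided exact permutation p-values, over 1200 arrangements within lines, were 0.719, 0.983 and 0.843 (each 0.983 after Benjamini-Hochberg adjustment over the 3), where the smallest p that the design allows is 0.000833. No change in proportion was detected, and the shares carry the uncertainty in how reads were divided between the rows.

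**Figure D2:**
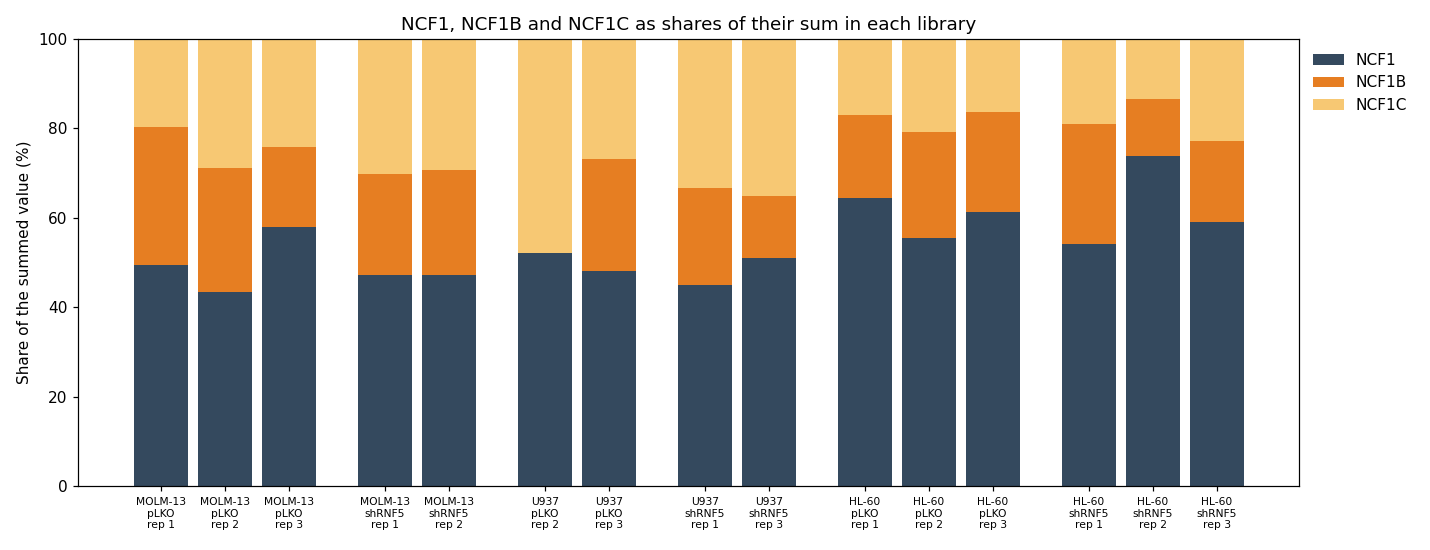
Share of NCF1 (dark), NCF1B (orange) and NCF1C (light) in their summed normalized read count (y axis, percent, from 0 to 100) in each of the 15 libraries (x axis: line, construct and replicate). NCF1 takes between 43.5% and 73.9% of the sum, and U937 pLKO replicate 2 has NCF1B at 0.

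NCF4, a cytosolic subunit that binds a membrane phosphoinositide, was highest in U937, at 5106 and 4383 normalized read counts with pLKO, followed by HL-60 at 1795, 2622 and 1989 and by MOLM-13 at 1784, 885 and 1324. HL-60 and MOLM-13 are separated only by the gap between 1784 and 1795, on scales set separately. With shRNF5 it was at 3231 and 3459 in U937, both below the pLKO libraries and not called (log2 fold change -0.50 ± 0.24 (SE), limma adjusted p = 0.199). In HL-60 it was at 2556, 2791 and 3335 with shRNF5, with overlap, and was called up (0.45 ± 0.16 (SE), limma adjusted p = 0.072). That call was lost without pLKO replicate 1 (0.33, adjusted p = 0.241), pLKO replicate 3 (0.41, 0.211), shRNF5 replicate 2 (0.47, 0.111) or shRNF5 replicate 3 (0.34, 0.223). In MOLM-13 it was at 861 and 1427, within or near the pLKO range (-0.21 ± 0.31 (SE), limma adjusted p = 0.769).

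Relative to NCF1, NCF4 was lower with shRNF5 in every line. The log2 ratio of NCF4 to NCF1 was 2.94, 2.17 and 1.23 with pLKO and 0.66 and 0.43 with shRNF5 in MOLM-13. In U937 it was 7.67 and 7.29 with pLKO and 4.19 and 4.65 with shRNF5, and in HL-60 it was 4.54, 6.0 and 5.57 with pLKO and 4.03, 4.24 and 3.86 with shRNF5. The groups do not overlap in any line. The mean difference over the lines was -1.99 on the log2 scale (two-sided exact permutation p = 0.0025, adjusted over 3 ratios 0.0075), and it was -1.57, -3.06 and -1.33 in MOLM-13, U937 and HL-60. Leaving out any 1 library gave -2.13 to -1.85. The ratio mostly restates the rise of NCF1 and is not a separate result on NCF4. Averaged over the lines, the log2 fold change was 1.90 for NCF1 and -0.09 for NCF4 (limma adjusted p = 0.742 for NCF4).

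The Rac GTPases, which switch the assembled oxidase on, were called in different lines. RAC2, the form largely restricted to blood cells, was at 768 and 696 normalized read counts with pLKO and at 1481 and 1418 with shRNF5 in U937, without overlap. It rose 1.98-fold there (log2 fold change 0.99 ± 0.24 (SE), limma adjusted p = 0.0428). As for the NCF1 copies in U937, the call was lost without pLKO replicate 2 (1.06, adjusted p = 0.256), shRNF5 replicate 1 (0.95, 0.600) or shRNF5 replicate 3 (1.02, 0.253). In MOLM-13 RAC2 was at 2209, 2619 and 3018 with pLKO and at 3118 and 3477 with shRNF5 (0.34 ± 0.17 (SE), limma adjusted p = 0.334), and in HL-60 at 1227, 1352 and 1051 with pLKO and 1454, 956 and 1403 with shRNF5 (0.05 ± 0.17 (SE), 0.848).

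RAC1, the widely expressed form, rose in HL-60 from 2794, 3253 and 3027 with pLKO to 3999, 4052 and 5258 with shRNF5. The groups did not overlap, the log2 fold change was 0.54 ± 0.14 (SE) and the limma adjusted p-value was 0.0208. In MOLM-13 the values were lower with shRNF5, at 4268 and 4553 against 6991, 5898 and 5413, without overlap and without a call (-0.46 ± 0.15 (SE), limma adjusted p = 0.199). In U937 they overlapped, at 4151 and 5785 with pLKO and 5751 and 5244 with shRNF5 (0.16 ± 0.26 (SE), 0.713). The log2 ratio of RAC2 to RAC1 was higher with shRNF5 by 0.80 in MOLM-13 and 0.82 in U937 and differed by -0.49 in HL-60, a mean of 0.38 with a two-sided exact permutation p of 0.15 (adjusted over 3 ratios, 0.225).

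**Figure D3:**
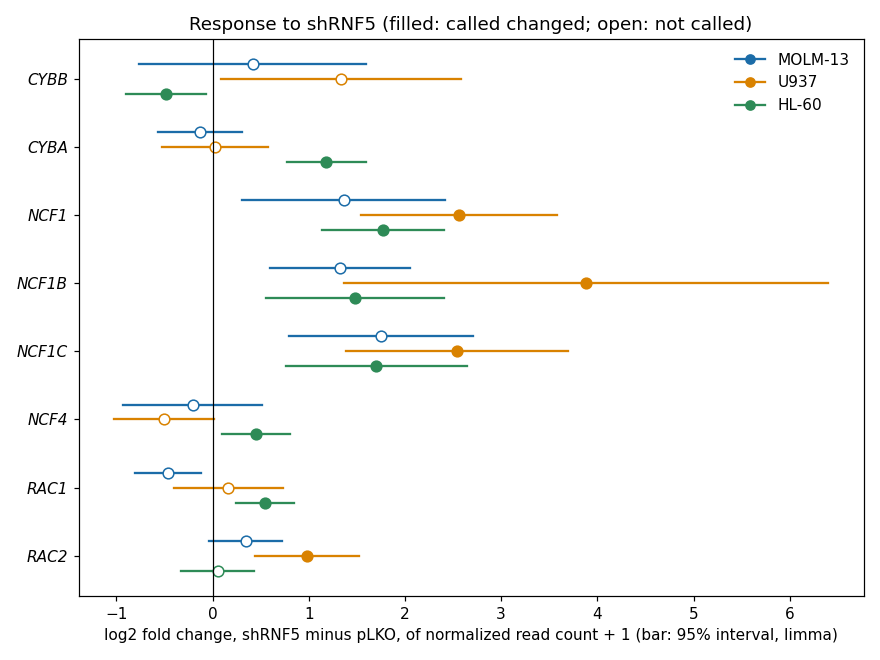
Log2 fold change of normalized read count + 1, shRNF5 minus pLKO (x axis), for the 8 genes (y axis) in MOLM-13 (blue), U937 (orange) and HL-60 (green). Points are limma estimates, bars their 95% intervals, and filled points are called changed. The points of NCF1, NCF1B and NCF1C lie to the right of 0 in all 3 lines, while those of CYBB, CYBA, NCF4 and RAC1 fall on both sides of it.

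A fit over all 15 libraries tested the differences between lines themselves, over the 11072 genes above 0 in each line. The 3 contrasts share libraries, so they are not independent of each other. For MOLM-13 minus U937 none of the 8 genes was called, where 15.4% of genes were. For MOLM-13 minus HL-60, 2 of 8 were called, against 8.82% of genes. These were CYBA, with a difference of -1.31 on the log2 scale (limma adjusted p = 0.0295), and RAC1, with -1.0 (0.0308). Both calls were lost when either shRNF5 library of MOLM-13 was left out, with differences of -1.30 and -1.32 for CYBA (adjusted p = 0.16 and 0.112) and -0.96 and -1.05 for RAC1 (0.173 and 0.111).

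For U937 minus HL-60, 4 of the 8 genes were called, against 37.2% of all genes, so this count is close to the background. CYBA differed by -1.16 (limma adjusted p = 0.0139) and RAC2 by 0.93 (0.0182), and both held whichever library was left out. CYBB differed by 1.82 (limma adjusted p = 0.0588) and NCF4 by -0.95 (0.0647). The CYBB value was 0.93 (adjusted p = 0.348) without U937 shRNF5 replicate 1, and its call was also lost without U937 pLKO replicate 3 (1.71, 0.11), HL-60 pLKO replicate 1 (1.63, 0.12) or HL-60 shRNF5 replicate 3 (1.75, 0.107). The NCF4 call was lost without 6 of the 10 libraries of these lines, with differences of -1.0 to -0.83.

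Averaged over the lines with equal weight, 4 of the 8 genes were called up and 0 down, against 7.62% up and 6.61% down among all genes. They were NCF1 at a mean log2 fold change of 1.90 ± 0.24 (SE, limma adjusted p = 0.000152), NCF1B at 2.23 ± 0.46 (SE, 0.00469), NCF1C at 2.0 ± 0.28 (SE, 0.000313) and RAC2 at 0.46 ± 0.11 (SE, 0.0104). These 4 calls held whichever of the 15 libraries was left out, with 1.74 to 2.06 for NCF1, 1.58 to 2.88 for NCF1B, 1.85 to 2.15 for NCF1C and 0.42 to 0.53 for RAC2. CYBA had a mean of 0.36 (limma adjusted p = 0.0639), under the fold threshold. In this fit the lines share their estimate of the spread, and the rows of the 3 copies are not separate evidence of each other.

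Genes whose pattern was most like that of NCF1 were sought among 9619 genes with a mean of at least 50 in each line, by Pearson correlation of log2(value + 1) over the 15 libraries after centring each line. They were BIN2 (r = 0.957), a membrane-bending protein of leukocytes, CCDC69 (0.928), LACC1 (0.913), KLF10 (0.912), a transcription factor, and TRIP4 (0.91). For CYBB they were ZNF646 (0.886), HMGXB3 (0.869), SLC25A44 (0.856), C12orf5 (0.852) and EMC1 (0.85). NCF1 itself correlated at 0.96 with NCF1C, 0.80 with NCF1B, 0.75 with RAC2, 0.32 with CYBB and 0.00 with NCF4, and CYBA correlated at 0.85 with RAC1. The libraries share their line and construct, so these values describe likeness and carry no test.

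Other genes of the pathway were counted by lists, each read against the share of all genes called in that line. Of 11 genes for other NADPH oxidases and their partners, 9 were at 0 in all libraries, among them NOX1, NOX3, NOX4, NOX5 and the dual oxidases DUOX1 and DUOX2. NOXA1, an activator of epithelial oxidases, and RAC3 were tested in every line. Both fell in U937, NOXA1 from a mean of 495.5 to 137.5 (log2 fold change -1.95, limma adjusted p = 0.0312) and RAC3 from 584.5 to 301.0 (-0.96, 0.066), and neither was called in MOLM-13 or HL-60. The list's median log2 fold change was -1.45 in U937, where the median of all genes was 0.00 and 8.74% of all genes were called down. With 2 genes tested, the list is too short to be set against that share.

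Of 21 genes for assembly, maturation and Rac regulation, 21, 19 and 21 were tested in MOLM-13, U937 and HL-60. None was called in MOLM-13, 2 rose and 1 fell in U937, where 6.92% of all genes rose and 8.74% fell, and 4 rose and 3 fell in HL-60, against 13.6% and 12.3%. The U937 count is at the background. TIAM1, a Rac exchange factor, fell in both U937 and HL-60, with log2 fold changes of -1.86 (limma adjusted p = 0.0348) and -0.66 (0.0362), and was at -0.47 in MOLM-13 (0.452). In U937 the GDP-dissociation inhibitors ARHGDIA (0.94, limma adjusted p = 0.0507) and ARHGDIB (1.05, 0.0635), which hold Rac in the cytosol, rose. In HL-60, C17orf62 (CYBC1), a chaperone of the CYBB and CYBA heterodimer, rose by 0.47 (limma adjusted p = 0.0641), PREX1, another Rac exchange factor, by 0.40 (0.0457), PRKCB, a kinase that phosphorylates NCF1, by 0.84 (0.0226) and IRAK4 by 0.47 (0.0254). PIK3CG fell by 1.31 (limma adjusted p = 0.00759) and PRKCA by 0.53 (0.0653) in HL-60. The list's medians were 0.03, 0.19 and 0.14, near those of all genes at 0.01, 0.00 and 0.00.

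Enzymes that use or remove oxidants gave 0 calls of 13 tested in MOLM-13, while U937 had 1 up and 1 down of 13 and HL-60 had 4 up and 1 down of 13. All genes were called up at 6.92% and down at 8.74% in U937, so its count is at the background, and at 13.6% and 12.3% in HL-60. In U937 TXNRD1, thioredoxin reductase, rose by 0.84 on the log2 scale (limma adjusted p = 0.0593) and PRDX5, a peroxiredoxin, fell by 0.78 (0.0717). In HL-60 MPO, which makes hypochlorous acid from the oxidase's product, rose by 0.60 (limma adjusted p = 0.078), the glutathione peroxidases GPX1 and GPX4 by 0.68 (0.0504) and 0.48 (0.0609) and TXN by 0.42 (0.0839), while PRDX1 fell by 0.62 (0.00823).

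Enzymes that supply NADPH gave 0 called of 6 in MOLM-13 and 2 up of 6 in HL-60, against 13.6% of all genes up there, with none called down. ME1, malic enzyme, rose in HL-60 from a mean of 350.7 to 1133 (log2 fold change 1.71, limma adjusted p = 0.00233), as did IDH1, from 1231 to 2219 (0.81, 0.0124). ME1 was at 0 in U937.

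Of 7 transcription factors known to bind promoters of phagocyte oxidase genes, 6, 7 and 5 were tested in MOLM-13, U937 and HL-60. None was called in MOLM-13. In U937, 1 was called down, against 8.74% of all genes, and in HL-60, 1 was called up, against 13.6%. Counts this small do not stand apart from the background. HOXA9 fell in U937, with a log2 fold change of -1.48 (limma adjusted p = 0.0179), and HOXA10 rose in HL-60 (0.62, 0.0342). SPI1, the factor whose core motif is marked in the promoters above, was not called in any line, with a log2 fold change of -0.35 for MOLM-13 (limma adjusted p = 0.435), of -0.79 for U937 (0.127) and of -0.04 for HL-60 (0.875).

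**Figure D4:**
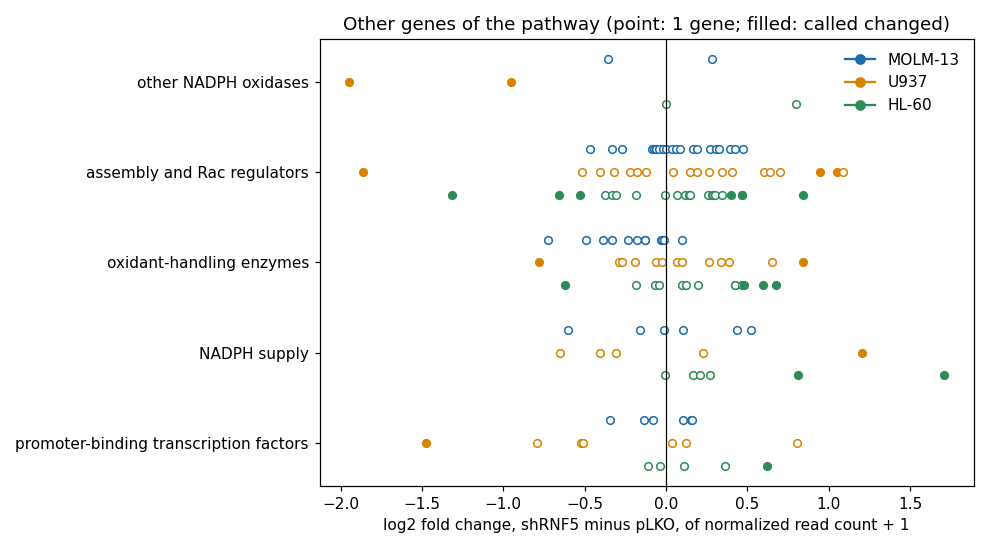
Log2 fold change of normalized read count + 1, shRNF5 minus pLKO (x axis), of each tested gene of 5 lists (y axis) in MOLM-13 (blue), U937 (orange) and HL-60 (green). Each point is 1 gene and filled points are called changed. No point is filled in MOLM-13, and each list with called genes in HL-60 has most of them to the right of 0, as with the 4 regulators that rose and the 3 that fell.

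Genes around the NCF1 copies were called about as often as all genes. Those within 500 kb of a copy were at a median log2 fold change of -0.06 over 23 genes tested in MOLM-13, 0.37 over 25 in U937 and 0.01 over 23 in HL-60. The medians of all genes were 0.01, 0.00 and 0.00, so the neighbours' median lay higher in U937, which was not tested. MOLM-13 had no call among them, U937 had 1 up and 2 down, and HL-60 had 2 up and 4 down. Among all genes 6.92% were called up and 8.74% down in U937, and 13.6% and 12.3% in HL-60. BCL7B, a subunit of the BAF chromatin-remodelling complex that lies 300.9 kb from NCF1B, was called in more than 1 line, at 0.96 in U937 (limma adjusted p = 0.0561) and 0.51 in HL-60 (0.0611). Several of these genes also have near-identical copies in the region, so their values carry the same uncertainty.

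**Figure D5:**
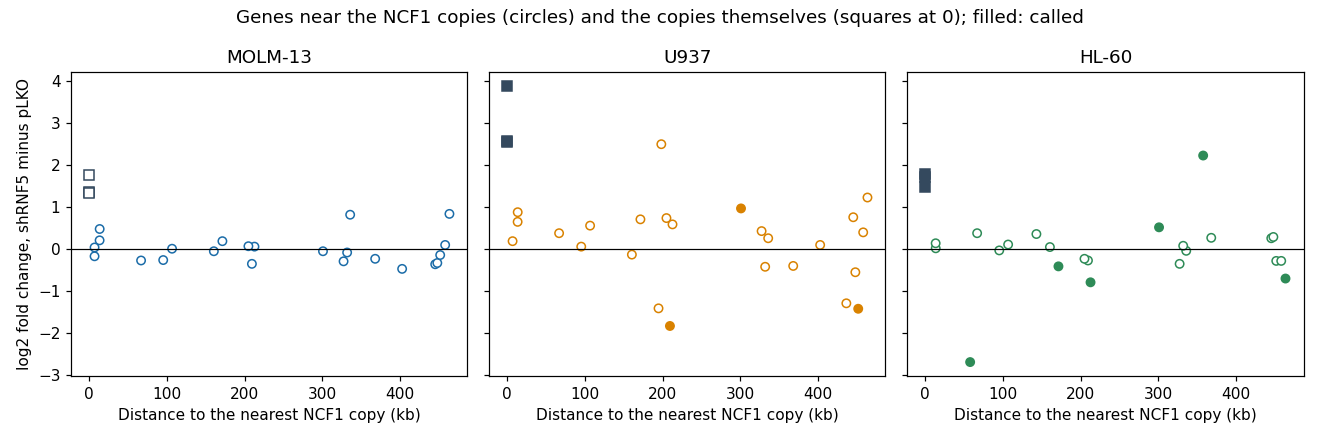
Log2 fold change, shRNF5 minus pLKO (y axis), of genes within 500 kb of an NCF1 copy against their distance to the nearest copy in kb (x axis), with 1 panel per line. Circles are neighbouring genes, squares at 0 kb are NCF1, NCF1B and NCF1C, and filled symbols are called changed. The copies lie at 1.33 to 1.75 in MOLM-13, 2.54 to 3.88 in U937 and 1.48 to 1.78 in HL-60, while the neighbours lie on both sides of 0.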

How the data were processed

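RNA-seq of 15 libraries from 3 AML lines was analysed. Reads had been trimmed (CUTADAPT), aligned to hg19 (STAR) and assigned to genes (featureCounts) by the authors, who used edgeR within SARTools to normalize each line by itself. What they deposited is treated as a score, a read count divided by a factor of its library and then rounded, and genes below the authors' filter stand at 0. No pair of libraries held identical values. The design allowed for raw counts, and because the values are normalized, a count test was not used.

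limma 3.58.1 in R 4.3.3 was run on log2(value + 1), with eBayes set to follow the mean-variance trend, separately for each line over all genes above 0 in any library, and in a fit of 6 groups for differences between lines and for the mean over lines. Shares and ratios were compared by exact permutation within lines, with Python 3.11.15, scipy 1.17.1 and numpy 2.4.6. Intervals are 95%. The depth limits low values most, and no counting interval is given because the values are not counts.

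The genes and lists were chosen with earlier results of these data known. Named genes are the 8 genes and RNF5, list genes called in at least 2 lines or in lists with 5 or fewer calls, neighbours called in at least 2 lines, and the 5 genes most like NCF1 and like CYBB. Neighbours were matched to GENCODE on GRCh37 by identifier or, where that had changed, by symbol. RefSeq promoters on GRCh38.p14 were found for CYBA, CYBB and NCF1. Alternatives were other constants, a mean filter, median-of-ratios scaling, no trend, one fit over all libraries, replicate blocks, a stricter p-value, and leaving out each library. Some list genes, and counts that rest on them, are not reported here.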

Additional observations from a re-analysis of the deposited data

Results flagged for a closer look

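The response to shRNF5 of 5 of the 8 genes differed between lines when the contrasts between lines are pooled. The difference itself was tested in a limma fit over all 15 libraries, with Benjamini-Hochberg adjustment over 11072 genes. The share of all genes that differed in any contrast was not counted, so the count of 5 has no background to be read against. The log2 fold change of CYBA was lower in MOLM-13 than in HL-60, with a difference of -1.31 (adjusted p = 0.0295), and lower in U937 than in HL-60, with -1.16 (0.0139). That of RAC1 was lower in MOLM-13 than in HL-60, with -1.0 (0.0308). Between U937 and HL-60, the NCF4 response differed by -0.95 (0.0647), the RAC2 response by 0.93 (0.0182) and the CYBB response by 1.82 (0.0588), the last with U937 shRNF5 libraries at 268 and 77 normalized read counts. These contrasts share the HL-60 libraries. The calls for MOLM-13 minus HL-60 were lost without either MOLM-13 shRNF5 library, with differences of -1.30 and -1.32 for CYBA and -0.96 and -1.05 for RAC1. The CYBB and NCF4 calls were lost at an adjusted p under 0.05. They were also lost without some single libraries, among them HL-60 pLKO replicate 1 (1.63, limma adjusted p = 0.12, and -0.83, 0.134). Those of CYBA and RAC2 for U937 minus HL-60 held whichever library was left out. Of the 11072 genes, 37.2% differed between U937 and HL-60 and 8.82% between MOLM-13 and HL-60.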

How the results depend on the processing

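Across 1261 alternative values, 1119 kept their direction and their side of the threshold or, for counts of called genes, stayed within 1.5 times the main count. Counts within that limit still changed, as at an adjusted p under 0.05 from 7 to 5 in HL-60 and from 4 to 3 in U937. None of the 357 alternative values for single genes called in the main tests changed sign, and 51 of them lost the call. In MOLM-13, where no gene was called, the replicate block gave 3 called genes and a summed NCF1 log2 fold change of 1.80 that passed (limma adjusted p = 0.00163), and with the numbering of the study's heat map 4 called genes and 1.28 (1.6e-05), with CYBA and NCF4 at 0.03. The deviations of same-numbered libraries correlated at -0.173 and -0.53 in MOLM-13, at 0.256 in U937 and at 0.505, 0.156 and -0.109 in HL-60, and those of the MOLM-13 pairs by the heat map numbering at 0.53 and 0.281. With 2 shRNF5 libraries, their deviations mirror each other, so the signs in MOLM-13 and U937 are tied. No source says that a number marks a shared culture or day, and the blocked values are given beside the main ones without ranking them. The block could not be fitted in U937, where the groups share 1 number. In the fit of all libraries the replicate block left 1 gene called for U937 minus HL-60 and gave NCF1B differences of 0.11 for MOLM-13 minus U937 and -0.14 for U937 minus HL-60, an NCF1 difference of 0.05 for MOLM-13 minus HL-60 and a mean response of -0.05 for RAC1. One fit over all libraries called 1 gene in MOLM-13 and 4 in HL-60. Without a mean-variance trend 2 were called in U937. At an adjusted p under 0.05, 2 were called for U937 minus HL-60, and with a mean of at least 50, 2 in the mean response. A constant of 10 gave an NCF1B difference of 0.11 for MOLM-13 minus HL-60. For these the cause was not tested, apart from the genes that the stricter p and the mean filter remove by construction.

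Leaving out each library gave 0 to 4 called genes in U937 (2.38 to 2.92 for the summed NCF1 log2 fold change) and 4 to 7 in HL-60, and 0 to 2, 0 to 2 and 2 to 4 for the differences MOLM-13 minus U937, MOLM-13 minus HL-60 and U937 minus HL-60. Log2 values that changed sign were none of them called. They ran from -0.29 to 0.03 for CYBA and -0.57 to 0.16 for NCF4 in MOLM-13, -0.15 to 0.21 for CYBA and -0.08 to 0.40 for RAC1 in U937, -0.06 to 0.25 for RAC2 in HL-60 and -0.21 to 0.04 for the mean NCF4 response. Differences ran from -0.07 to 0.66 for NCF4 and -0.33 to 0.02 for CYBA in MOLM-13 minus U937, and from -0.41 to 0.50 for NCF1C, -0.89 to 0.07 for NCF1 and -0.66 to 0.34 for NCF1B in MOLM-13 minus HL-60. The mean difference of the CYBB to CYBA ratio ran from -0.19 to 0.32, and those of the shares from -2.97 to 0.32 points for NCF1, -4.05 to 4.28 for NCF1B and -2.57 to 4.44 for NCF1C. A group left with 1 library is assumed to vary like the others. In U937, leaving out a library leaves so few that a lost call says little of the size of the change.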
